A study of Mus musculus with 9 samples.

Results

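Protein synthesis stalls when a ribosome meets damaged mRNA, a missing stop codon or a codon that is slow to decode, and cells hold a set of factors that find and clear such ribosomes. Footprint abundance of 10 genes for these factors, Pelo, Hbs1l, Abce1, Gtpbp1, Gtpbp2, Zfp598, Edf1, Nemf, Ltn1 and Ankzf1, was examined here. They were picked by gene symbol, as 10 of the 36410 rows of the count table, and all 10 passed the filter on low counts that left 12678 genes for testing. The study counted ribosome-protected mRNA fragments in immortalized striatal cells to ask how mutant huntingtin goes along with ribosome occupancy. The control line (STHdhQ7/Q7) carries Htt alleles encoding 7 glutamines, the HD-het line (STHdhQ7/Q111) pairs such an allele with a knock-in allele of 111 glutamines, and the HD-homo line (STHdhQ111/Q111) carries the 111 glutamine allele on both chromosomes. The labels give the strain of all lines as C57/BL6, and every culture received cycloheximide, which arrests elongating ribosomes, for 10 min before harvest. Each genotype was 1 cell line with 3 libraries, so that genotype and line cannot be told apart and a p-value measures only the spread between libraries within the lines. Matched mRNA was not analysed here, so every value is an abundance of footprints and not a translation efficiency.

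A leading ribosome that stops is hit by the ribosome behind it, and the joined faces of this collided pair are what ZFP598, a ubiquitin ligase also known as ZNF598, and EDF1 recognise. Ribosomes with an empty decoding site are taken apart by PELO, its GTPase partner HBS1L and the ATPase ABCE1, while the related GTPases GTPBP1 and GTPBP2 act on ribosomes paused during elongation. After splitting, the unfinished protein stays on the large subunit, where NEMF binds it, the ubiquitin ligase LTN1 (listerin) marks it and ANKZF1 cuts it from its tRNA. Neurons are known to be sensitive to losses in this system. Mice that lack both GTPBP2 and a brain-specific arginine tRNA lose neurons, as do mice with altered listerin or NEMF.

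Library totals ran from 22504543 to 41888701 counts, and the 10 genes together took 0.112% to 0.117% of the counts in control libraries, 0.0785% to 0.0849% in HD-het libraries and 0.126% to 0.130% in HD-homo libraries. Most counts of the 10 genes fell on Abce1 and Edf1 in every line, so these shares mainly follow those genes. Replicates of the control line varied least (coefficient of variation beyond counting noise in edgeR 8.83%), with 10.5% for HD-het and 16.0% for HD-homo cells. The edgeR tests below nevertheless used a common estimate of the spread for all lines. Footprints on Htt itself lay at 28.7 ± 1.07 CPM (counts per 1000000 of the TMM-scaled library total) in control cells, 20.3 ± 0.819 CPM in HD-het cells and 6.62 ± 0.971 CPM in HD-homo cells (n = 3, SD), which cannot verify the repeat length because the row counts both alleles. Of 10 markers of striatal projection neurons, Drd1 and Drd2 had counts of 0 in every library, and the summed level of the list was 9.49 to 18.7 CPM in control cells, 5.69 to 8.69 CPM in HD-het cells and 7.59 to 18.3 CPM in HD-homo cells. Ppp1r1b made up most of this sum, with means of 12.0, 5.18 and 10.5 CPM in the same order. Penk averaged 1.42, 0.824 and 2.92 CPM. Pde10a, at 0.582, 1.15 and 0.303 CPM, and Tac1, at 0.0777, 0.214 and 0.0313 CPM, were instead highest in HD-het cells. Markers of neural precursors, 4 genes led by Nes, summed to 382 to 532 CPM in control cells, 1093 to 1228 CPM in HD-het cells and 8.34 to 10.5 CPM in HD-homo cells. Mesenchymal markers, 4 genes, summed to 6101 to 8563 CPM in control cells, 24101 to 25691 CPM in HD-het cells and 5216 to 6624 CPM in HD-homo cells. The genes of this list differed in direction. In the order control, HD-het, HD-homo, Col1a1 averaged 3344, 16522 and 4568 CPM, Col1a2 24.0, 88.9 and 1027 CPM, and Acta2 4100.2, 8388 and 268 CPM, while Thy1 had at most 1 count in a library. Lists for GABA synthesis, microglia, oligodendrocytes and endothelial cells summed to at most 0.535 CPM in any library and that for astrocytes to at most 1.51 CPM. These differences in marker genes between the lines stand beside every result below, and their part in the results was not tested. In bulk samples such as these, fewer cells of a type and less RNA per cell cannot be told apart.

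Against control, HD-het cells had 1 of the 10 factors higher (Gtpbp2) and 5 lower (Hbs1l, Abce1, Gtpbp1, Edf1 and Nemf) when edgeR's quasi-likelihood F test was adjusted over all genes at 0.05, where 60.1% of all genes tested passed, 31.0% higher and 29.1% lower. HD-homo cells had 2 factors higher than control (Pelo and Edf1) and 3 lower (Zfp598, Nemf and Ankzf1), against 45.7% of all genes, 23.3% higher and 22.3% lower. Between the mutant lines, 5 factors were higher in HD-homo (Pelo, Hbs1l, Abce1, Gtpbp1 and Edf1) and 4 were lower (Gtpbp2, Zfp598, Nemf and Ankzf1), against 67.5% of all genes, 34.6% higher and 32.8% lower. In both comparisons with control the share of factors that passed lay near that of all genes, so the number of calls is no result about these factors. The test of any difference among the 3 lines was passed by 9 factors, all but Ltn1, and by 78.4% of all genes. Here and between the mutant lines the share of factors was above that of all genes. With 10 factors this excess was not tested and is not read as a result.

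The sizes of the differences were moderate. The median log2 fold change of the 10 factors was -0.25 in HD-het against control, 0.13 in HD-homo against control and 0.27 in HD-homo against HD-het, beside medians of 0.019, 0.017 and 0.017 over all genes. Taken without sign, the medians of the factors were 0.33, 0.29 and 0.71, and those of all genes were 0.46, 0.32 and 0.55. A change of at least 2-fold was seen for Gtpbp2 in HD-het against control and for Gtpbp1 between the mutant lines, each the 1 such factor of its comparison, and for 0 factors in HD-homo against control. Libraries of the compared lines did not overlap for 8, 7 and 9 of the 10 factors, where 71.2%, 55.5% and 69.5% of all genes showed no overlap.

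**Figure D1:**
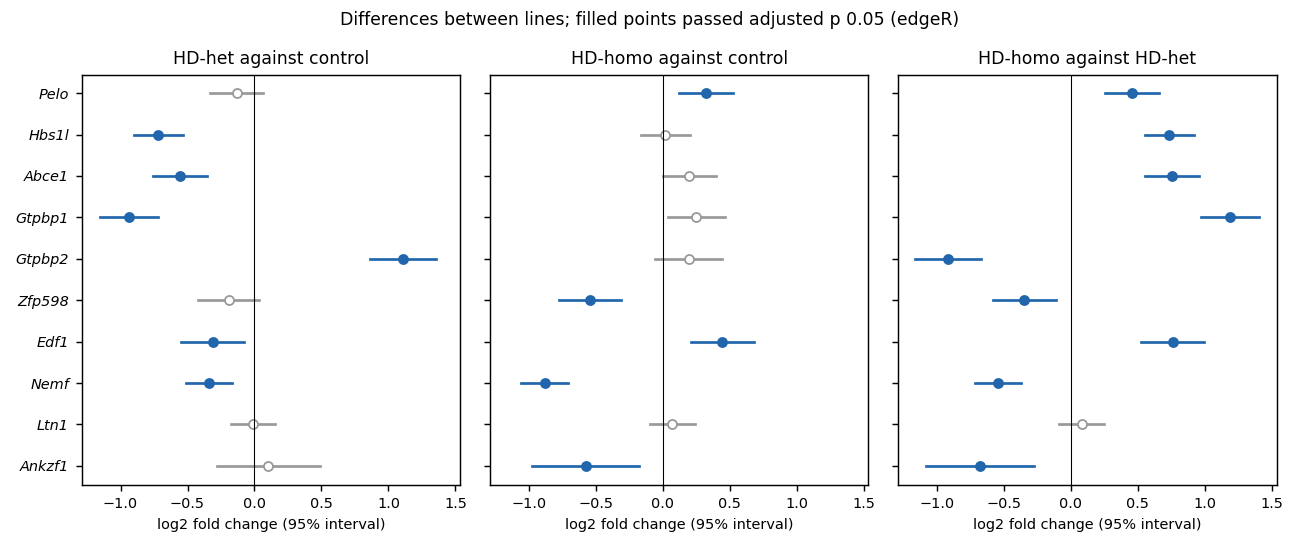
Log2 fold change of each of the 10 genes in the 3 comparisons of lines, with its 95% interval, where filled points passed the threshold of 0.05 after adjustment (edgeR). Gtpbp1 and Gtpbp2 lie on opposite sides of 0 in both comparisons that involve HD-het, and Nemf lies below 0 in all 3.

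The GTPases GTPBP1 and GTPBP2 showed the widest differences and are described first. Both are relatives of the elongation factor that delivers aminoacyl-tRNA, and loss of GTPBP2 in mice that also lack a brain-specific arginine tRNA leads to stalled ribosomes and neurodegeneration. Gtpbp1 (gene identifier 14904) lies on chromosome 15 from 79690001 to 79721479 on the plus strand, and Gtpbp2 (gene identifier 56055) on chromosome 17 from 46159227 to 46169370 on the plus strand, in mouse build GRCm38.p6. To show what lies upstream of the paralogs that moved in opposite directions, and of Abce1, which moved with Gtpbp1, the 250 bases before the start site in RefSeq (GRCm38.p6) are given 5′ to 3′ along the strand of the gene. They are chr15:79690646-79690895 on the plus strand for Gtpbp1, chr17:46160782-46161031 on the plus strand for Gtpbp2 and chr8:79711741-79711990 on the minus strand for Abce1. For both GTPases the start site taken by RefSeq's table lies downstream of the first annotated base of the gene. Capitals mark a match to a searched motif.
Gtpbp1: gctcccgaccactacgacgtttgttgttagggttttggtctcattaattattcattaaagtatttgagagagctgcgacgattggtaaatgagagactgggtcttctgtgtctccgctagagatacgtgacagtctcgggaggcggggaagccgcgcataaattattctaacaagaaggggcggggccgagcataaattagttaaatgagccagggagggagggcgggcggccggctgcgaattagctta
Gtpbp2: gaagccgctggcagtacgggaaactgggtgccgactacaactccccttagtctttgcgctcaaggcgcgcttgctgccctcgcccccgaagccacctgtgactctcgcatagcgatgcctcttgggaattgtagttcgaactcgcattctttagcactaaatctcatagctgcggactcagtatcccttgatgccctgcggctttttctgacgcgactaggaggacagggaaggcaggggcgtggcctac
Abce1: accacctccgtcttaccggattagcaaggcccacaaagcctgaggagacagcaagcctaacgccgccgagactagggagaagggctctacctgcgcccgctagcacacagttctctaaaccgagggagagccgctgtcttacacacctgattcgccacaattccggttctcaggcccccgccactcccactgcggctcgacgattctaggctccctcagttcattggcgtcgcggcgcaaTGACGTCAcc

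Among the motifs searched on both strands, from 250 bases before to 50 after the start of 32851 promoters, the cyclic AMP response element TGACGTCA was found in Abce1, where its first base lies 10 bases before the start, and in 1.79% of all promoters. The amino acid response element TGATGNAA, which the stress factor ATF4 binds, was found in 0 of the 10 factors and in 3.97% of all promoters. The E-box CACGTG was likewise found in 0 of the factors and in 7.15% of all promoters. The ETS site CCGGAAG was found in Edf1 and in 8.86% of all promoters, and the NRF1 site, searched as its palindrome, in Hbs1l and in 0.971%. These are matches of letters in a window and say nothing of binding. GC content of the printed stretches was 50.4% for Gtpbp1, 57.6% for Gtpbp2 and 60.4% for Abce1.

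Gtpbp1 had 76.6, 79.1 and 75.8 CPM in the control libraries, 42.3, 40.7 and 38.0 CPM in the HD-het libraries and 106, 84.1 and 85.4 CPM in the HD-homo libraries. All HD-het libraries lay far below the rest, and the HD-homo libraries lay above control, with the first of them standing apart. It fell in HD-het cells by 0.94 on the log2 scale (SE 0.10, edgeR adjusted p = 1.35e-05), or 1.91-fold, and was 2.28-fold higher in HD-homo relative to HD-het cells (log2 difference 1.19, SE 0.10, edgeR adjusted p = 1.32e-06). Against control the HD-homo value of 0.25 (95% interval 0.04 to 0.46) did not pass the threshold (edgeR adjusted p = 0.0538), although the libraries did not overlap. That comparison sat at the threshold, and it passed with library totals in place of TMM (0.28, edgeR adjusted p = 0.0475), with offsets for GC content and length (0.25, edgeR adjusted p = 0.0278), without HD-homo replicate 2 (0.31, edgeR adjusted p = 0.0258) and without HD-homo replicate 3 (0.30, edgeR adjusted p = 0.0450).

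Gtpbp2 ran the other way in HD-het cells. Its levels were 6.80, 7.02 and 6.73 CPM in control, 16.2, 14.9 and 13.1 CPM in HD-het and 7.73, 8.41 and 7.36 CPM in HD-homo libraries, from counts of 166 to 542 per library. The HD-het libraries stood well above both other lines, which lay close together without overlapping. The rise in HD-het cells was 2.16-fold (log2 fold change 1.11, SE 0.11, edgeR adjusted p = 1.02e-05), and HD-homo cells were 1.89-fold below HD-het cells (log2 difference -0.92, SE 0.11, edgeR adjusted p = 2.51e-05). Between HD-homo and control cells the log2 fold change was 0.19, with a 95% interval from -0.06 to 0.45 (edgeR adjusted p = 0.193).

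PELO, HBS1L and ABCE1 take stalled or terminated ribosomes apart, PELO by entering the empty decoding site, HBS1L by delivering it and ABCE1 by driving the subunits apart with ATP. Pelo (gene identifier 105083, chromosome 13, 115088355 to 115090158, minus strand) was at 23.7, 22.8 and 23.2 CPM in control, 22.4, 20.5 and 20.5 CPM in HD-het and 27.8, 27.4 and 31.9 CPM in HD-homo libraries. HD-homo libraries were the highest without overlap, and HD-het libraries lay just under control. The log2 fold change of -0.13 in HD-het against control (95% interval -0.34 to 0.07) did not pass the threshold (edgeR adjusted p = 0.224), whereas Pelo rose in HD-homo against control by 0.32 (SE 0.09, edgeR adjusted p = 0.0132). HD-homo exceeded HD-het cells by 0.46 (SE 0.09, edgeR adjusted p = 9.49e-04), which was 0.29 with offsets for GC content and length (edgeR adjusted p = 0.0166). Without control replicate 2 the call against control was lost (0.31, edgeR adjusted p = 0.0538). Pelo lies inside Itga1, an integrin gene on the same strand with which it shares 0 exon bases, and Itga1 was at 2.84 ± 1.27 CPM in control cells, 100.1 ± 10.5 CPM in HD-het cells and 3.68 ± 2.04 CPM in HD-homo cells (n = 3, SD). The 34.4-fold difference of Itga1 between HD-het and control cells was not seen in the Pelo counts.

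Hbs1l (gene identifier 56422, chromosome 10, 21295979 to 21368889, plus strand) had 84.8, 77.6 and 79.0 CPM in control, 50.9, 49.4 and 46.4 CPM in HD-het and 80.7, 88.3 and 75.4 CPM in HD-homo libraries. HD-het libraries were the lowest without overlap, and control and HD-homo libraries were intermingled. In HD-het cells Hbs1l fell 1.64-fold against control (log2 fold change -0.72, SE 0.08, edgeR adjusted p = 2.96e-05), and HD-homo cells were 1.67-fold above HD-het cells (log2 difference 0.74, SE 0.08, edgeR adjusted p = 1.53e-05). HD-homo and control cells differed by 0.018 on the log2 scale, with a 95% interval from -0.17 to 0.20 (edgeR adjusted p = 0.878), and the sign of this small value turned under several settings. The row pools all isoforms of the gene, among them a shorter transcript known to encode SKI7, a link to the RNA exosome and not a ribosome rescue factor.

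Abce1 (gene identifier 24015, chromosome 8, 79683442 to 79711740, minus strand) was by CPM the most abundant row of the 10, with 467, 495 and 490.2 CPM in control, 304, 348 and 337 CPM in HD-het and 515, 531 and 622 CPM in HD-homo libraries. Again the HD-het libraries were the lowest without overlap, and every HD-homo library lay above every control library. Abce1 fell in HD-het cells 1.47-fold (log2 fold change -0.55, SE 0.09, edgeR adjusted p = 3.29e-04), and HD-homo cells were 1.69-fold above HD-het cells (log2 difference 0.75, SE 0.09, edgeR adjusted p = 2.39e-05). In HD-homo against control the value of 0.20 had a 95% interval whose lower end was at -0.0010 and whose upper end was at 0.40 (edgeR adjusted p = 0.0959).

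**Figure D2:**
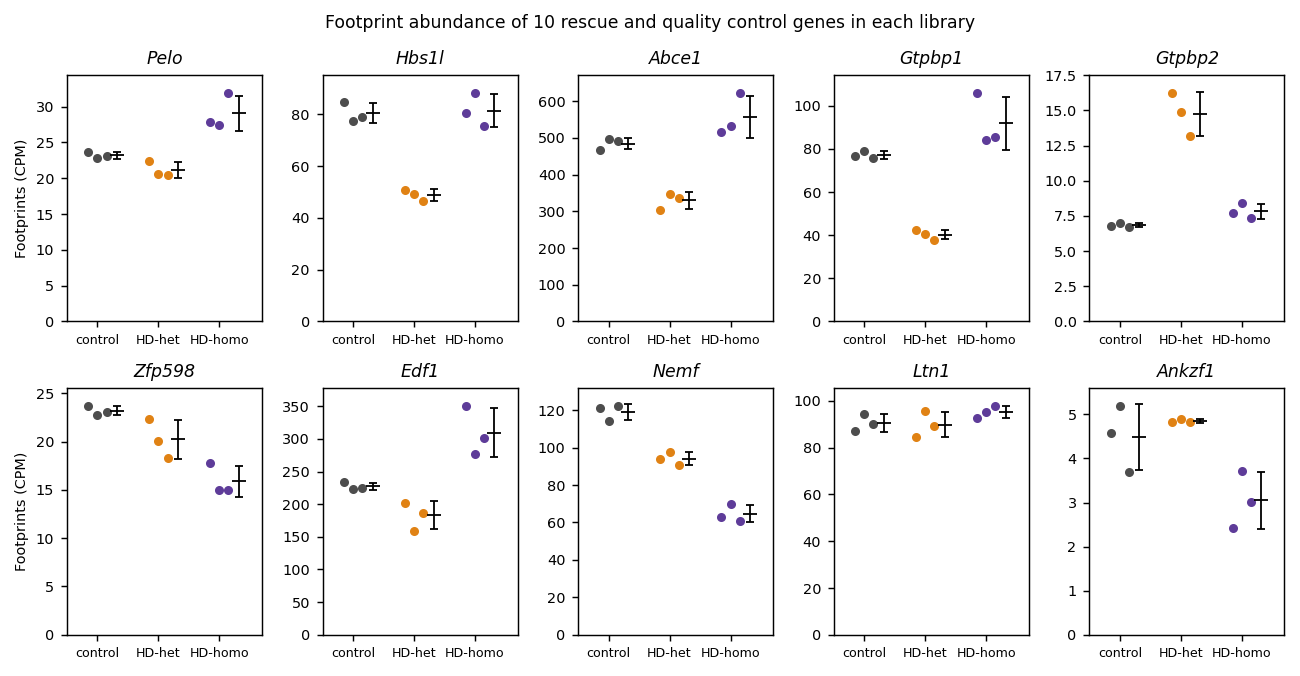
Footprint abundance in CPM of the 10 genes in each of the 9 libraries, with 1 panel per gene, points for libraries and bars for the mean and SD of 3 libraries. Hbs1l, Abce1 and Gtpbp1 were lowest in HD-het, Gtpbp2 was highest there, Nemf stepped down from 119 CPM in control cells to 64.6 CPM in HD-homo cells, and Ltn1 stayed between 84.8 and 97.8 CPM in all libraries.

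Of the collision sensors, ZFP598 adds ubiquitin to small-subunit proteins of the collided pair, and EDF1 binds the collided pair and recruits the translational repressors GIGYF2 and EIF4E2. Zfp598 (gene identifier 213753, chromosome 17, 24669687 to 24682023, plus strand) had 23.7, 22.8 and 23.1 CPM in control, 22.4, 20.1 and 18.3 CPM in HD-het and 17.8, 15.0 and 14.9 CPM in HD-homo libraries. Libraries of the 3 lines formed 3 steps without overlap, control the highest and HD-homo the lowest. The fall in HD-homo against control was 1.45-fold (log2 fold change -0.54, SE 0.11, edgeR adjusted p = 0.00152), and that against HD-het was 0.35 on the log2 scale (SE 0.11, edgeR adjusted p = 0.0127). The step from control to HD-het, at -0.19 (95% interval -0.42 to 0.04), did not pass (edgeR adjusted p = 0.130). Calls that involve HD-het depended on the setting, since with offsets for GC content and length HD-het passed against control (-0.31, edgeR adjusted p = 0.00978) and the mutant lines no longer differed past the threshold (-0.21, edgeR adjusted p = 0.0556). The difference between the mutant lines was also lost with library totals (-0.27, edgeR adjusted p = 0.0579) and without HD-het replicate 1 (-0.27, edgeR adjusted p = 0.0580).

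Edf1 (gene identifier 59022, chromosome 2, 25557824 to 25562084, plus strand) had 234, 223 and 226 CPM in control, 202, 159.7 and 187 CPM in HD-het and 350.3, 277 and 302 CPM in HD-homo libraries. HD-homo libraries were the highest and HD-het libraries the lowest, and neither overlapped control. Edf1 rose in HD-homo cells 1.36-fold against control (log2 fold change 0.45, SE 0.11, edgeR adjusted p = 0.00566) and 1.69-fold against HD-het (log2 fold change 0.76, SE 0.11, edgeR adjusted p = 7.91e-05). It fell in HD-het against control by 0.31 (SE 0.11, edgeR adjusted p = 0.0256). Edf1 has the shortest coding sequence of the 10, at 444 bases, and with offsets for GC content and length the HD-het value turned to 0.069 (edgeR adjusted p = 0.537) and the difference between the mutant lines shrank to 0.28 (edgeR adjusted p = 0.0196). The HD-het call was also lost without control replicate 1 (edgeR adjusted p = 0.0618), control replicate 3 (edgeR adjusted p = 0.05003) or HD-het replicate 2 (edgeR adjusted p = 0.0798).

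NEMF, LTN1 and ANKZF1 work in sequence on the split large subunit. NEMF holds the peptidyl-tRNA, brings in listerin and can extend the stalled chain with a tail of added residues. Nemf (gene identifier 66244, chromosome 12, 69311541 to 69357201, minus strand) had 121, 114 and 122 CPM in control, 94.0, 97.7 and 90.6 CPM in HD-het and 63.0, 69.8 and 61.0 CPM in HD-homo libraries. Control libraries were the highest and HD-homo libraries the lowest, with no overlap between any lines. Nemf fell 1.26-fold in HD-het (log2 fold change -0.34, SE 0.08, edgeR adjusted p = 0.00302) and 1.84-fold in HD-homo cells (log2 difference -0.88, SE 0.08, edgeR adjusted p = 4.14e-06), and HD-homo cells lay 1.46-fold below HD-het cells (log2 difference -0.54, SE 0.08, edgeR adjusted p = 9.25e-05). These calls held under every alternative run, with log2 fold changes from -0.54 to -0.31, from -0.94 to -0.84 and from -0.60 to -0.39 in the same order. The value of -0.54 in HD-het against control came with offsets for GC content and length.

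Ltn1 (gene identifier 78913, chromosome 16, 87376651 to 87432619, minus strand) had 87.1, 94.5 and 90.3 CPM in control, 84.8, 95.8 and 89.2 CPM in HD-het and 92.7, 95.1 and 97.8 CPM in HD-homo libraries. Libraries of all lines overlapped. It was the 1 factor without a call in any comparison, and its adjusted p-value for any difference among the lines was 0.545 (edgeR). The 95% intervals of the log2 fold change ran from -0.18 to 0.16 in HD-het against control, from -0.10 to 0.24 in HD-homo against control and from -0.09 to 0.25 between the mutant lines. Ltn1 has the longest coding sequence of the 10, at 5301 bases, and with offsets for GC content and length it passed in HD-het against control (-0.30, edgeR adjusted p = 0.00442) and between the mutant lines (0.44, edgeR adjusted p = 2.76e-04).

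Ankzf1 (gene identifier 52231, chromosome 1, 75192160 to 75199387, plus strand) was the rarest of the 10, with 68 to 218 counts per library. It had 4.58, 5.19 and 3.69 CPM in control, 4.82, 4.90 and 4.82 CPM in HD-het and 2.42, 3.71 and 3.02 CPM in HD-homo libraries. HD-homo libraries lay below HD-het libraries, but the lowest control library fell within the range of HD-homo. Ankzf1 fell in HD-homo against HD-het by 0.68 (SE 0.18, edgeR adjusted p = 0.00622) and against control by 0.58 (SE 0.18, edgeR adjusted p = 0.0232). That against control was lost in a fit of only the 6 libraries compared (edgeR adjusted p = 0.0516) and without control replicate 1 (edgeR adjusted p = 0.0582), control replicate 2 (edgeR adjusted p = 0.109) or HD-homo replicate 1 (edgeR adjusted p = 0.0809). In HD-het against control the value was 0.10 (95% interval -0.28 to 0.49, edgeR adjusted p = 0.624). Ankzf1 shares 1369 exon bases with Glb1l on the opposite strand, and the use of strand in counting is not given in the sources used here, so that fragments of the pair cannot be told apart there. Glb1l lay at 1.43 ± 0.300 CPM in control cells, 6.96 ± 1.68 CPM in HD-het cells and 0.897 ± 0.153 CPM in HD-homo cells (n = 3, SD).

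To compare levels between the genes, CPM was divided by the length of the longest annotated coding sequence. On this scale Edf1 was the densest in control cells, at 512 ± 13.2 CPM per kb (n = 3, SD), followed by Abce1 at 269 ± 8.35 CPM per kb. Hbs1l at 39.3 ± 1.87, Gtpbp1 at 38.5 ± 0.872 and Nemf at 37.3 ± 1.37 CPM per kb came next, and the libraries of each neighbouring pair of these 3 overlapped. Pelo followed at 20.1 ± 0.413, Ltn1 at 17.1 ± 0.701, Zfp598 at 8.51 ± 0.170, Gtpbp2 at 3.78 ± 0.0820 and Ankzf1 at 2.00 ± 0.336 CPM per kb, with no overlap between neighbours. Footprint density thus spanned a wide range, with Edf1 and Abce1 far above Nemf and Ltn1, and Ankzf1 at the bottom. The order depends on the division by length, since by CPM Abce1, at 484, stood above Edf1, at 227, in control cells. Levels of the proteins were not measured here.

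In HD-het cells Nemf, at 29.5 ± 1.11 CPM per kb, took the place after Edf1 and Abce1, ahead of Hbs1l at 23.9 ± 1.11 and Gtpbp1 at 20.1 ± 1.09 CPM per kb. Libraries of Gtpbp1 overlapped those of Pelo, which overlapped those of Ltn1, and libraries of Gtpbp2, at 8.15 ± 0.858 CPM per kb, overlapped those of Zfp598, at 7.43 ± 0.739 CPM per kb. In HD-homo cells Gtpbp1 came after Edf1 and Abce1, at 45.8 ± 6.12 CPM per kb, and overlapped Hbs1l, at 39.8 ± 3.19 CPM per kb. Nemf, at 20.2 ± 1.44 CPM per kb, there lay below Pelo, at 25.2 ± 2.17 CPM per kb, without overlap.

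**Figure D3:**
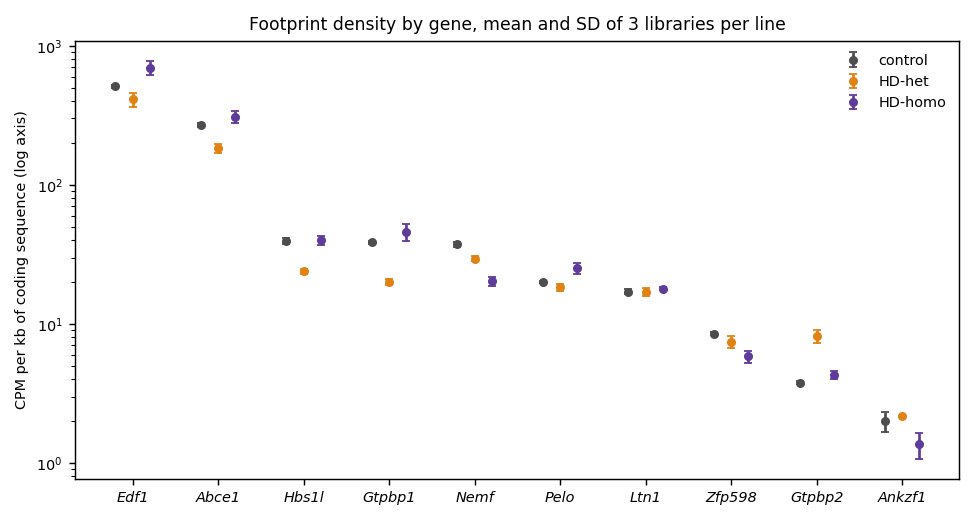
Footprint density of the 10 genes in CPM per kb of coding sequence on a log axis, ordered by the level in control cells, as the mean and SD of 3 libraries per line. Edf1 and Abce1 lie far above the other genes in every line, and Gtpbp2 in HD-het stands above its own level in control and HD-homo.

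Since several factors work in pairs, the ratio of their CPM values was taken within each library, which does not depend on how libraries were scaled. Differences among the lines were tested by an exact permutation test of the line labels over the 9 libraries (1680 assignments, F statistic on the log2 ratio), whose smallest possible p is 0.00357, with Benjamini-Hochberg adjustment over the 6 ratios. Of the 6 ratios, 5 passed an adjusted p-value of 0.05. Ratios were not divided by length, so they compare lines and not genes. They were not run with offsets for GC content and length.

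Gtpbp1 counts exceeded those of Gtpbp2 by 11.3, 11.3 and 11.3 times in the control libraries, 2.60, 2.73 and 2.89 times in the HD-het libraries and 13.7, 10 and 11.6 times in the HD-homo libraries. HD-het libraries were far below the others, and the control libraries lay within the range of HD-homo (exact permutation p = 0.025, adjusted p = 0.03). Nemf over Ltn1 was 1.39, 1.21 and 1.35 in control libraries, 1.11, 1.02 and 1.02 in HD-het libraries and 0.679, 0.734 and 0.624 in HD-homo libraries. The lines did not overlap, so that Nemf counts outnumbered those of Ltn1 in control and were the fewer of the pair in HD-homo cells (exact permutation p = 0.00357, adjusted p = 0.0107).

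Within the splitting module, Pelo over Hbs1l was 0.289 ± 0.00791 in control cells, 0.433 ± 0.0144 in HD-het cells and 0.360 ± 0.0583 in HD-homo cells (n = 3, SD, exact permutation p = 0.00714, adjusted p = 0.0143). HD-homo replicate 3, at 0.424, lay within the range of HD-het, and the adjusted p-value was 0.0514 in the exact permutation test without any 1 of the control libraries, HD-het replicate 1 or HD-het replicate 3. Abce1 over Pelo was 20.9 ± 1.06 in control cells, 15.6 ± 1.84 in HD-het cells and 19.1 ± 0.547 in HD-homo cells (n = 3, SD, exact permutation p = 0.00357, adjusted p = 0.0107). For the collision sensors, Zfp598 over Edf1 was 0.102 ± 0.000652 in control cells, 0.111 ± 0.0138 in HD-het cells and 0.0515 ± 0.00239 in HD-homo cells (n = 3, SD, exact permutation p = 0.0143, adjusted p = 0.0214), with all HD-homo libraries below the rest. With the offsets, the log2 fold changes of Zfp598 and Edf1 were -0.31 and 0.069 in HD-het against control. Between the mutant lines they were -0.21 and 0.28. The order of the pair in HD-het thus turns and the gap between the mutant lines narrows. Ankzf1 over Nemf, at 0.0378 ± 0.00764, 0.0515 ± 0.00157 and 0.0470 ± 0.00766 in the same order, did not pass (n = 3, SD, exact permutation p = 0.0571, adjusted p = 0.0571). With the rank-based Kruskal-Wallis statistic in the same exact permutation test, Gtpbp1 over Gtpbp2 and Zfp598 over Edf1 no longer passed (adjusted p = 0.06 for both).

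**Figure D4:**
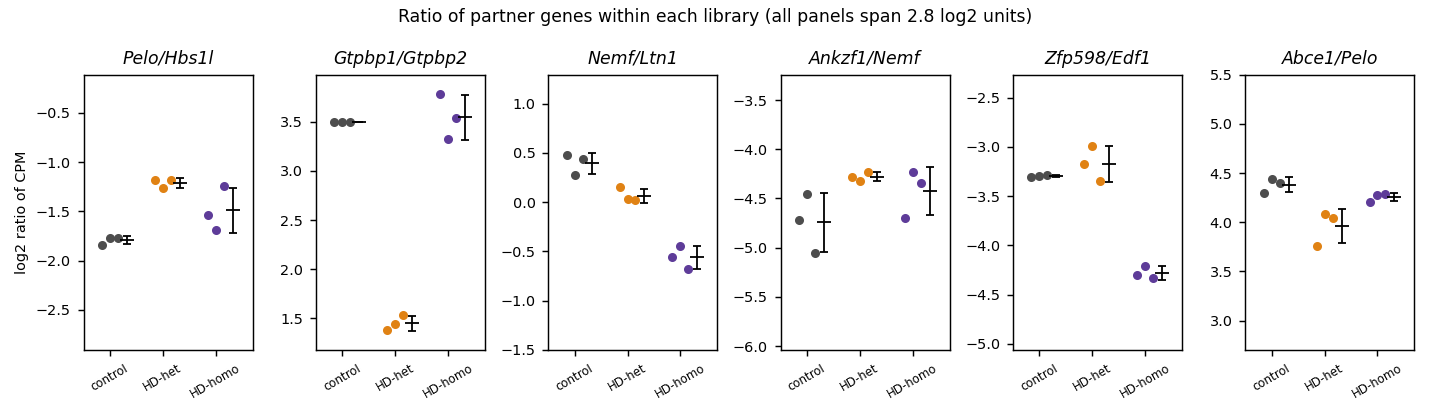
Log2 ratio of the CPM values of 6 pairs of genes in each of the 9 libraries, 1 panel per pair, with points for libraries and bars for the mean and SD of a line. Gtpbp1 over Gtpbp2 drops in HD-het and Nemf over Ltn1 steps down from control through HD-het to HD-homo.

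The 3 factors that ranged most among the lines were set beside all genes with a mean of at least 10 CPM, 7726 in number, by Pearson's r of log2 CPM over the 9 libraries. As the libraries fall into 3 lines and share their scaling, r can largely follow the 3 line means and is given as a description. Gtpbp1 was closest to Trim47 (r = 0.994), Net1 (r = 0.993) and Psmb6 (r = 0.993), Gtpbp2 to Prrc1 (r = 0.991), Ostf1 (r = 0.988) and Acbd5 (r = 0.988), and Nemf to Fez1 (r = 0.990), Map1b (r = 0.989) and Rgs16 (r = 0.986). Among the factors themselves and over the same 9 libraries, Gtpbp1 had its highest r with Hbs1l (0.949), Abce1 (0.920) and Edf1 (0.882) and its lowest with Gtpbp2 (-0.897).

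Other genes of the same pathway were taken from lists of 52 genes, all of which passed the filter. Rows under the older symbols Zak and Ufd1l, beside those for Map3k20 and Ufd1, were left out of the lists. In HD-het against control 7 of the 52 were higher and 23 lower, with a median log2 fold change of -0.18. In HD-homo against control 11 were higher and 7 lower (median 0.0036), and between the mutant lines 26 were higher in HD-homo and 11 lower (median 0.18). Of all genes tested, 31.0% were higher and 29.1% lower in HD-het against control. The shares were 23.3% and 22.3% in HD-homo against control, and 34.6% and 32.8% between the mutant lines. These shares, and the medians over all genes, stand beside the counts here and those of each list below. A count near them is no result about a list.

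Genes for mRNA decay at stalled ribosomes made up most of the lower calls in HD-het cells. Of 16 such genes 13 were lower and 2 higher in HD-het against control (median -0.56), 2 were higher and 4 lower in HD-homo against control (median 0.029), and 12 were higher and 3 lower in HD-homo against HD-het (median 0.68). Over the alternatives 13 were lower in HD-het in each. The 3 lower between the mutant lines went down to 0 with offsets for GC content and length and to 1 with library totals. They also went down to 1 without HD-het replicate 1, HD-het replicate 2 or HD-homo replicate 1. The 2 higher in HD-het went down to 1 without HD-het replicate 2 and to 0 with the offsets. All 11 genes of the RNA exosome in this list, the complex that degrades mRNA from its 3′ end, were lower in HD-het cells (median -0.78), a subset counted after its values were seen, and 10 or 11 were lower under each alternative. Of all genes 29.1% were lower in HD-het against control. Exosc6 went from a control level of 23.9 ± 1.16 CPM to 10.8 ± 2.92 CPM in HD-het cells and 29.6 ± 5.95 CPM in HD-homo cells (n = 3, SD), with log2 fold changes of -1.16 in HD-het against control (SE 0.20, edgeR adjusted p = 4.03e-04) and 1.47 between the mutant lines (SE 0.20). Exosc1 fell in HD-het cells by 0.95 (SE 0.12). Exosc4 was higher in HD-homo relative to HD-het cells by 0.97 (SE 0.12). Exosc3 rose in HD-homo against control by 0.42 (SE 0.10). Skiv2l, the helicase that feeds the exosome, was lower in HD-homo against control by a log2 fold change of -0.43 (SE 0.08, edgeR adjusted p = 0.00124).

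For collision sensing and small-subunit ubiquitylation, 2 of 12 genes were higher and 4 lower in HD-het against control, 3 higher and 1 lower in HD-homo against control, and 4 higher and 3 lower in HD-homo against HD-het, with medians of -0.14, -0.097 and -0.016. The 3 higher in HD-homo against control went down to 1 without control replicate 1 or with the offsets, and 2 were higher and 2 lower without HD-homo replicate 2. With the offsets 3 were higher and 6 lower in HD-het against control, and 6 were higher and 1 lower between the mutant lines. Map3k20, the kinase ZAK that signals from collided ribosomes, rose from its control level of 85.5 ± 2.89 CPM to 174 ± 1.84 CPM in HD-het cells and 118 ± 15.2 CPM in HD-homo cells (n = 3, SD), with log2 fold changes of 1.02 (SE 0.09, edgeR adjusted p = 5.01e-06) and 0.46 (SE 0.09, edgeR adjusted p = 0.00185). These values do not include the row under the older symbol Zak. Eif5a, whose protein eases the joining of slow amino acid pairs, fell in HD-het by 0.95 (SE 0.08, edgeR adjusted p = 3.86e-06) and was higher in HD-homo than HD-het by 0.85 (SE 0.08). Rack1, a small-subunit protein needed to sense collisions, was higher in HD-homo relative to HD-het by 0.97 (SE 0.09). Gcn1l1, which couples collided ribosomes to the kinase GCN2, was lower in HD-homo against control by a log2 fold change of -0.42 (SE 0.10, edgeR adjusted p = 0.00444), but at -0.088 with the offsets (edgeR adjusted p = 0.442).

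Among the 6 termination and recycling genes, 1 was higher and 1 lower in HD-het against control, 1 higher in HD-homo against control, and 2 higher and 2 lower between the mutant lines. In HD-homo against control 1 was also lower with no filter, with only the 6 libraries compared, and without HD-het replicate 1 or 3. There 2 were lower without HD-homo replicate 3, and 0 were higher and 2 lower with offsets for GC content and length. The 2 lower between the mutant lines went down to 1 with library totals or the offsets. The same held without HD-het replicate 1 or 2 or HD-homo replicate 1 or 2. In HD-het against control 2 were lower with the offsets. Denr fell in HD-het by 0.98 (SE 0.11, edgeR adjusted p = 2.35e-05) while its partner Mcts1, which recycles the small subunit together with it, rose by 0.35 (SE 0.12, edgeR adjusted p = 0.0245). In HD-homo against HD-het the log2 fold changes of the pair were 0.73 and -0.65. With the offsets the Mcts1 values were 0.60 and -1.37. Gspt1, the release factor eRF3, rose in HD-homo against control by 0.27 (SE 0.07, edgeR adjusted p = 0.0112).

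Of the 4 genes of the ASCC complex, which pulls collided ribosomes apart, 1 was higher in HD-het against control, 2 higher and 1 lower in HD-homo against control and 2 higher in HD-homo against HD-het. The 1 lower gene was lost with library totals, the stricter filter or only the 6 libraries compared. It was also lost without any 1 control library, HD-het replicate 1 or HD-homo replicate 3. In HD-het against control 1 was lower with only the 6 libraries compared and without HD-homo replicate 1 or 3. With offsets for GC content and length 0 were higher and 2 lower there, and 3 were higher and 1 lower in HD-homo against HD-het. Trip4 rose by 0.41 in HD-het (SE 0.11) and by 0.42 in HD-homo cells (SE 0.11). Ascc2 rose in HD-homo cells by 0.39 against control (SE 0.07) and 0.53 against HD-het (SE 0.07). Ascc3 was 0.28 higher in HD-homo relative to HD-het cells (SE 0.08). Of 3 genes of the repressor complex that EDF1 recruits, Eif4e2 alone passed, at -0.37 in HD-het against control (SE 0.11, edgeR adjusted p = 0.0135) and 0.58 between the mutant lines (SE 0.11). In HD-homo against control, where 0 of the 3 passed, 1 was higher without HD-homo replicate 1 and 1 lower without HD-homo replicate 2. With the offsets 2 of the 3 were lower in HD-het against control and 2 were higher between the mutant lines.

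Of 11 genes for nascent chain extraction and tRNA release, 1 was higher and 4 lower in HD-het against control, 3 higher and 1 lower in HD-homo against control, and 5 higher and 3 lower in HD-homo against HD-het, with medians of -0.011, 0.090 and 0.074. The 4 lower in HD-het went down to 2 with RLE factors, with the stricter filter, with the replicate block and without any 1 control library, HD-het replicate 1 or HD-het replicate 3. Between the mutant lines the 3 lower went down to 1 with library totals, no filter or offsets for GC content and length. They also went down to 1 without HD-het replicate 1, HD-het replicate 2 or HD-homo replicate 3. In HD-homo against control 2 were lower with the replicate block or without HD-homo replicate 3, and the 3 higher went down to 1 with the offsets. Vcp, the ATPase that pulls ubiquitylated chains off the large subunit, fell in HD-homo against control by 0.36 (SE 0.08, edgeR adjusted p = 0.00370). Trnt1, which repairs the tRNA end after release, fell in HD-het by 0.54 (SE 0.08) and was 0.86 higher in HD-homo relative to HD-het cells (SE 0.08). Rchy1, a ubiquitin ligase for stalled chains, rose in HD-het by 0.35 (SE 0.11) and in HD-homo cells by 0.43 (SE 0.11). Elac1, which also mends released tRNA, was lower in HD-homo relative to HD-het by a log2 fold change of -0.72 (SE 0.20). Some calls named from these lists did not hold throughout, since of 18 alternatives Mcts1 in HD-het passed in 14, Rchy1 in HD-het in 15, Eif4e2 in HD-het in 16, and Trip4 in HD-het, Rchy1, Gspt1 and Exosc3 in HD-homo against control and Ascc3 between the mutant lines in 17. The alternative that ended the calls of Trip4 (0.14), Rchy1 in HD-homo (0.21), Gspt1 (0.15) and Exosc3 (0.21) was the offsets, which also moved Ascc3 to 0.64 and Ascc2 to 0.79 between the mutant lines. The calls of Mcts1, Rchy1 and Eif4e2 in HD-het were lost without control replicate 3 or HD-het replicate 2. That of Mcts1 was also lost without control replicate 2 or HD-het replicate 3, and that of Rchy1 without control replicate 1.

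**Figure D5:**
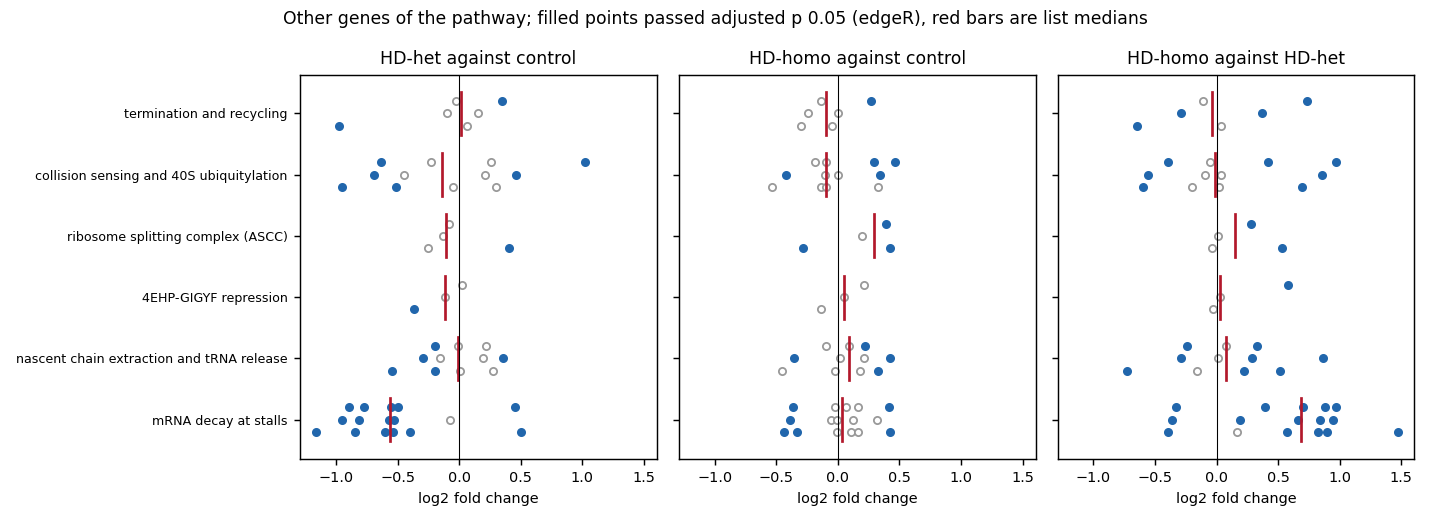
Log2 fold change of 52 other genes of the pathway in the 3 comparisons, grouped by list, where filled points passed the threshold of 0.05 after adjustment (edgeR) and red bars mark list medians. In HD-het against control the mRNA decay list lies mostly below 0, with a median of -0.56, and between the mutant lines it lies mostly above 0, with a median of 0.68.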

How the data were processed

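Ribosome footprints of 26 to 32 nt from the 80S monosome fraction were sequenced in 9 libraries, 3 per line. The authors deposited raw counts per gene symbol, with no normalization and no pooling. Per the labels, cutadapt and Bowtie 1.0.1 were used with build mm10 (GRCm38), while annotation, counting program and strand setting are not given in the sources used here. Of the 36410 rows, 19597 were 0 in every library, 26 bore a date in place of a symbol and 283 bore an outdated symbol beside a row for the present one. The deposited counts were tested with edgeR 4.0.16 (limma 3.58.1, R 4.3.3, quasi-likelihood F test, TMM factors, filterByExpr, group means only, all 9 libraries), with Benjamini-Hochberg adjustment over 12678 genes and a threshold of 0.05. Scripts were tested on simulated data. The tests are 2-sided. No gene-level count test is stated in the study's methods. On TMM-scaled totals 3 counts, the limit that a count of 0 allows, came to between 0.0714 and 0.142 CPM, which covers counting error only.

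Gene coordinates and promoters came from RefSeq (GRCm38.p6), which named 93.0% of rows and all 10 factors, and coding lengths from GENCODE M21. The members and lists were chosen with earlier results of these data known. The named genes were the 10 factors, Htt, in each list and comparison the 2 genes with the largest change past the threshold, and for the 3 most variable factors the 3 genes with the highest r. Alternatives were RLE factors, library totals, no filter, DESeq2 1.42.0, a minimum of 10 counts per library, a replicate block, a fit of just the 6 libraries in a comparison, offsets for GC content and length (loess, span 0.5), no rows under older symbols, and leaving out each library.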

Additional observations from a re-analysis of the deposited data

How the results depend on the processing

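Of 540 values of the 10 factors (18 alternative settings in each of 3 comparisons), 512 kept their direction and side of the threshold, 11 were no longer past it, 7 passed it anew and 10 changed sign. The sign changes concerned Ltn1 in HD-het against control (0.0049 with RLE factors, 0.018 with the stricter filter, and from -0.076 to 0.017 over fits without 1 library, among them 0.017 without control replicate 2 and 0.016 without HD-het replicate 1), Hbs1l in HD-homo against control (-0.0023 with no filter, -0.15 with offsets for GC content and length, and -0.042 to 0.072 without 1 library, with -0.0084 without control replicate 2 and -0.042 without HD-homo replicate 2), Edf1 in HD-het against control (0.069 with the offsets) and Ankzf1 in HD-het against control (-0.019 without control replicate 3 and up to 0.23 without control replicate 2). Apart from Edf1 these values did not pass the threshold in the fit reported, and the cause was not tested. The offsets, with values for 98.1% of the genes tested, moved the median of all genes in HD-het against control from 0.019 to -0.087. Leaving out 1 library gave 5 to 6 factors past the threshold in HD-het against control, 3 to 6 in HD-homo against control, 8 to 9 between the mutant lines and 8 to 9 for any difference. The count of 3 (1 higher and 2 lower, in place of 5) came without control replicate 2. Of the 6 partner ratios, 5 passed as reported, 4 to 5 without 1 library, 3 with the Kruskal-Wallis statistic and 0 with the replicate block, where labels were permuted within numbers and the smallest p was 0.0278. Replicate numbers share no stated origin, and deviations of same-numbered libraries correlated at r from -0.356 to 0.175. With the replicate block 6, 5 and 9 factors passed in the 3 comparisons and 9 for any difference, and it changed no call of a single factor. In the pathway lists it gave 1 higher and 2 lower nascent chain genes in HD-het against control (1 and 4 as reported), 2 and 2 in HD-homo against control (3 and 1) and 4 and 2 between the mutant lines (5 and 3), and 2 and 1 collision genes in HD-homo against control (3 and 1).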
